A study of Mus musculus with 6 samples.

Results

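The microRNAs (miRNAs) of the imprinted Dlk1-Dio3 locus were measured in MCT, a line of mouse kidney tubule cells whose strain background is SJL H-2S. Of the 44 miRNAs named for the locus, 42 were found on the array by their exact name (star forms left out), out of 611 mouse miRNA entries. The other 2, miR-539 and miR-544, are listed on the array only under arm-specific names and are counted with the other entries of the locus. The study set 3 arrays of control cells against 3 arrays of cells given TGFβ (transforming growth factor beta) for 72 hours at a dose of 3 ng/ml. All cells were grown in 10% fetal calf serum and moved to 0.5% serum the day before TGFβ was given, so the controls share the low serum. Total RNA (100 ng per array) was labelled with Cy3. The model is 1 cell line grown without other kidney cells. No label says whether the arrays of a group came from separate cultures, so a p-value here reflects the spread between arrays, possibly a technical one.

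The Dlk1-Dio3 locus lies on distal mouse chromosome 12 and is imprinted. The paternal copy makes the proteins Dlk1, Rtl1 and Dio3, and the maternal copy makes the long non-coding RNAs Meg3, Rian and Mirg together with the miRNAs and small nucleolar RNAs processed from them. The miRNAs are abundant in embryo, placenta and brain. They fall into a group around Rtl1, transcribed opposite to it, a pair within Rian, and a long run from miR-379 to miR-410.

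Of the 42 miRNAs, 2 were measured above background on any array, miR-494 and miR-370. Their mature sequences (RefSeq, GRCm38.p6) are shown with those of miR-127, miR-379 and miR-410, which stand for the Rtl1 group and for both ends of the long run, and of miR-668, the brightest of those that stayed at background. Capitals mark the seed, bases 2 to 8, which pairs with target mRNAs.

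mmu-miR-494: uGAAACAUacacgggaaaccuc

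mmu-miR-370: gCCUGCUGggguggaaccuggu

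mmu-miR-127: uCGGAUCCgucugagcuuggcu

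mmu-miR-379: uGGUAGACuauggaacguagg

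mmu-miR-410: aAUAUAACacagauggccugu

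mmu-miR-668: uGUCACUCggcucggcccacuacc

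Sequences were matched for 39 of the 42, and miR-376c, miR-485 and miR-487b were not matched. Among the matched members no seed was shared: the 39 sequences carried 39 distinct seeds. Other miRNAs of the locus were not counted here, and miR-1193-5p carries the seed of miR-379 (GGUAGAC). The look-alikes miR-376a (seed UCGUAGA) and miR-376b (seed UCAUAGA), and miR-300 (seed AUGCAAG) and miR-381 (seed AUACAAG), were also separate by this measure. The share of G and C ran from 23.8% to 68.2% with a median of 47.6%. miR-370 was at the top of that range at 68.2%, level with miR-666-5p, and miR-494 was near the middle at 45.5%. miR-666-5p was at background on every array.

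Signal is given in intensity units of the scanner after background subtraction, where values around 0 are background. The scanner software flags each spot that is well above background. A probe was taken as well above background when that flag was set for a share of 0.5 or more of its spots, and 1 such probe sufficed for its miRNA. By this measure each array had between 74 and 103 of the 611 mouse entries above background, and the dimmest such probe read between 22.4 and 27.8 intensity units. TGFβ 1 stood apart from the other arrays, with 15 miRNAs at least 2 log2 units above every other array, where no other array had any. Several of the 15, among them miR-370, miR-712 and miR-715, were well above background on no other array. Their gap is taken from values at background. Leaving out control 1 raised the number of miRNAs that passed the test from 0 of 84 to 31 of 85. Only 1 of those 85 was a cluster miRNA, miR-494, and it did not pass. The log10 signal of the labelling spike-in was 1.82 on control 1, and between 2.09 and 2.14 on the other arrays. The software's in-range flag for that signal was 0 on all 6 arrays. Whether labelling bears on these calls was not tested. Results that rest on TGFβ 1 or control 1 are given with and without them. The cells showed 4 of 8 kidney tubule markers on all 6 arrays (miR-196a, miR-10a, miR-10b and miR-30a), while miR-192, miR-194, miR-204 and miR-215 were not well above background. None of 5 epithelial markers (the miR-200 family), 3 mesenchymal, 2 smooth muscle, 2 endothelial, 6 blood cell and 5 neuronal markers (miR-124, miR-9, miR-137, miR-128 and miR-138) was well above background on any array, although the flag that the scanner software sets per miRNA was set for 1 of the 5 neuronal markers. Among 4 skeletal muscle markers only miR-206 passed, in control 1 and in every TGFβ array.

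Signal of the cluster was at background for nearly all members in both groups. On controls 1, 2 and 3, 1, 0 and 0 of the 42 miRNAs were well above background, and on TGFβ 1, 2 and 3, 2, 1 and 1 were. The 42 were read by 100 probes and 840 spots per array. Over all arrays 2 of 42 (4.76%) were well above background at least once, beside 107 of 611 (17.5%) of all mouse entries and 104 of 534 (19.5%) of those outside the locus. The difference between these shares was not tested. Within the cluster, the scanner software's flag per miRNA picked out the same miRNAs, miR-370 on TGFβ 1, and miR-494 on control 1 and the 3 TGFβ arrays. Over all mouse entries that flag was set at least once for 135 of 611, and for 132 of 534 outside the locus.

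**Figure D1:**
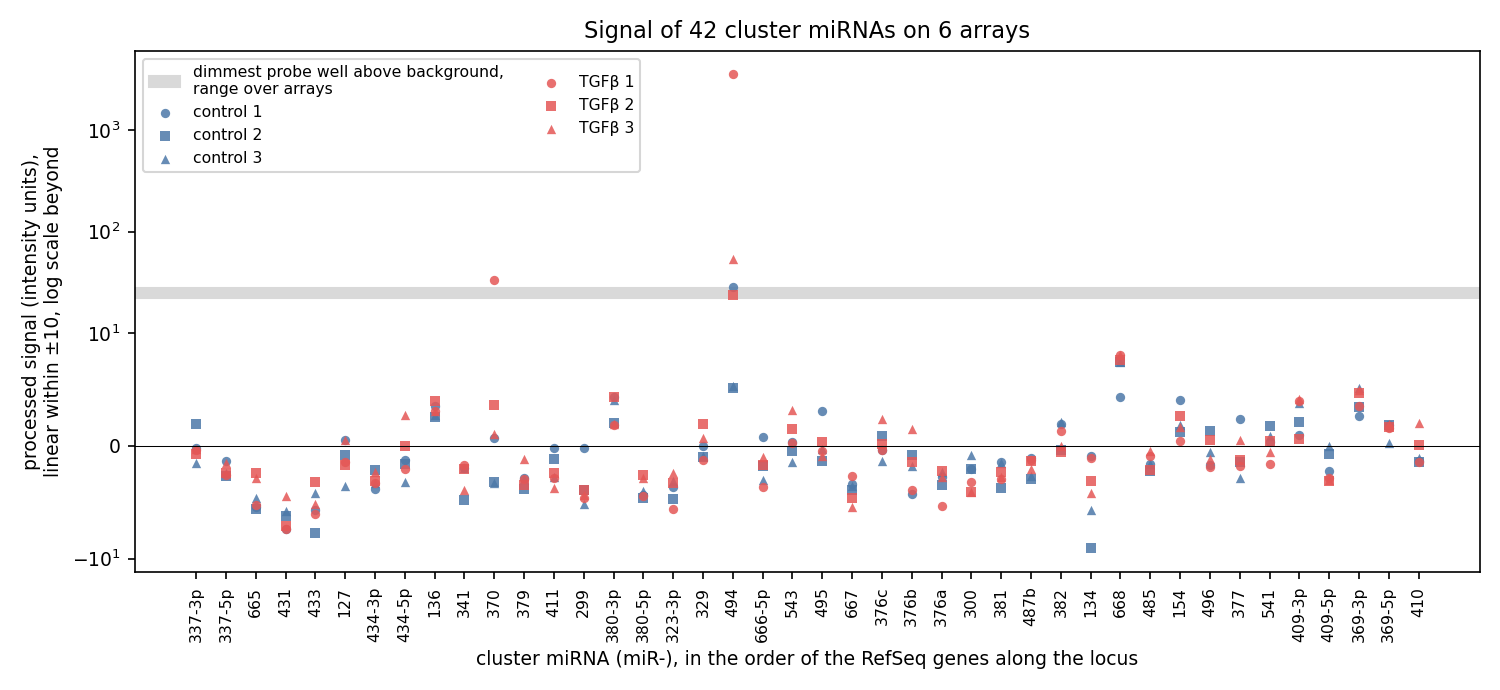
Processed signal (intensity units, linear within 10 of 0 and on a log scale beyond) of each of 42 cluster miRNAs on 6 arrays, ordered along the locus, with control arrays in blue and TGFβ arrays in red. The grey band spans the dimmest probe well above background over the arrays (22.4 to 27.8), and apart from miR-494 and miR-370 every point lies below it.

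The other 40 miRNAs read between -9.08 and 8.06 intensity units over the 6 arrays, with a median of -1.43. Of their 240 values, 166 (69.2%) were below 0. The largest share that any of them reached of the dimmest probe well above background on its array was 35.9%. For scale, the negative control spots of the 6 arrays averaged between 1.83 and 3.23 with SDs over spots between 5.28 and 5.71. At single spots, 7 of 4606 (0.152%) carried the flag, and no 2 of the 7 belonged to the same miRNA. The median over the 40 was -1.44 in control and -1.42 in TGFβ-treated cells. Since these miRNAs were not well above background in either group, no fold is given for them, and a difference between the groups was not detectable at this signal. In bulk RNA, fewer cells with a miRNA and less of it per cell cannot be told apart.

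The group around Rtl1 was at background throughout. Its 9 members (miR-337-3p, miR-337-5p, miR-665, miR-431, miR-433, miR-127, miR-434-3p, miR-434-5p and miR-136) read between -7.72 and 3.98, with a median of -2.40. miR-127, which is fully complementary to the Rtl1 transcript and directs its cleavage, gave no flagged spot. It read 0.479, -0.782 and -3.57 in control arrays and -1.42, -1.73 and 0.558 in TGFβ arrays. mmu-miR-136 was the brightest of the group, with 3.49, 2.56 and 2.77 in the 3 controls and 3.06, 3.98 and 3.103 with TGFβ. Its arrays overlap between the groups, and every value is within the spread of the negative control spots. miR-431 and miR-433 lay below 0 on every array, as did 16 others of the 40.

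The run from miR-379 to miR-410 has 31 of the 42 miRNAs, among them miR-134, known for its part in dendritic spine growth. Without miR-494 its 30 members read between -9.08 and 8.06, with a median of -1.17. mmu-miR-668 was the brightest of these, at 4.34, 7.44 and 7.43 in control arrays and 8.06, 7.60 and 8.03 in TGFβ arrays (each set in replicate order). mmu-miR-369-3p followed with 2.69, 3.44 and 5.08 in control and 3.55, 4.69 and 4.95 in TGFβ-treated cells. Both were above 0 on all 6 arrays and below the dimmest probe well above background on all 6. miR-379, at one end of the run, was below 0 on every array (-3.79 to -1.17), and miR-410, at the other end, read -1.46 to 2.00. miR-134, miR-376a, miR-376b, miR-381, miR-382, miR-409-3p, miR-411, miR-485, miR-487b and miR-495 stayed in the same range. Single flagged spots occurred for miR-134 and miR-382 on control 1, for miR-433 and mmu-miR-668 on TGFβ 2, and for miR-337-3p, miR-376c and miR-543 on TGFβ 3.

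mmu-miR-494 was the exception in the run. It was read by 2 probes of 10 spots each. Its mean signal was 28.4 on control 1, 5.12 on control 2 and 5.34 on control 3, and 3525.5 on TGFβ 1, 23.6 on TGFβ 2 and 53.7 on TGFβ 3. It was well above background on 1 of 3 control arrays and 3 of 3 TGFβ arrays, and the groups overlap, because control 1 lies above TGFβ 2. TGFβ 1 is far above all other arrays, 61.0 times the scaled level of TGFβ 3, the next highest.

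The bright signal of miR-494 on TGFβ 1 was spread evenly over its spots. The 10 spots of the first probe lay between 4166 and 5411 with a coefficient of variation of 8.56%, and the 9 spots of the second that were not marked as outliers lay between 2109 and 2429 (4.54%). On TGFβ 3 all 10 spots of the first probe and all 9 kept spots of the second carried the flag. On TGFβ 2, 8 of 10 and 0 of 7 did, and on control 1, 7 of 10 and 1 of 10. Controls 2 and 3 had no flagged spot on either probe. Both probes thus put the arrays in much the same order, with TGFβ 1 highest and controls 2 and 3 lowest.

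**Figure D2:**
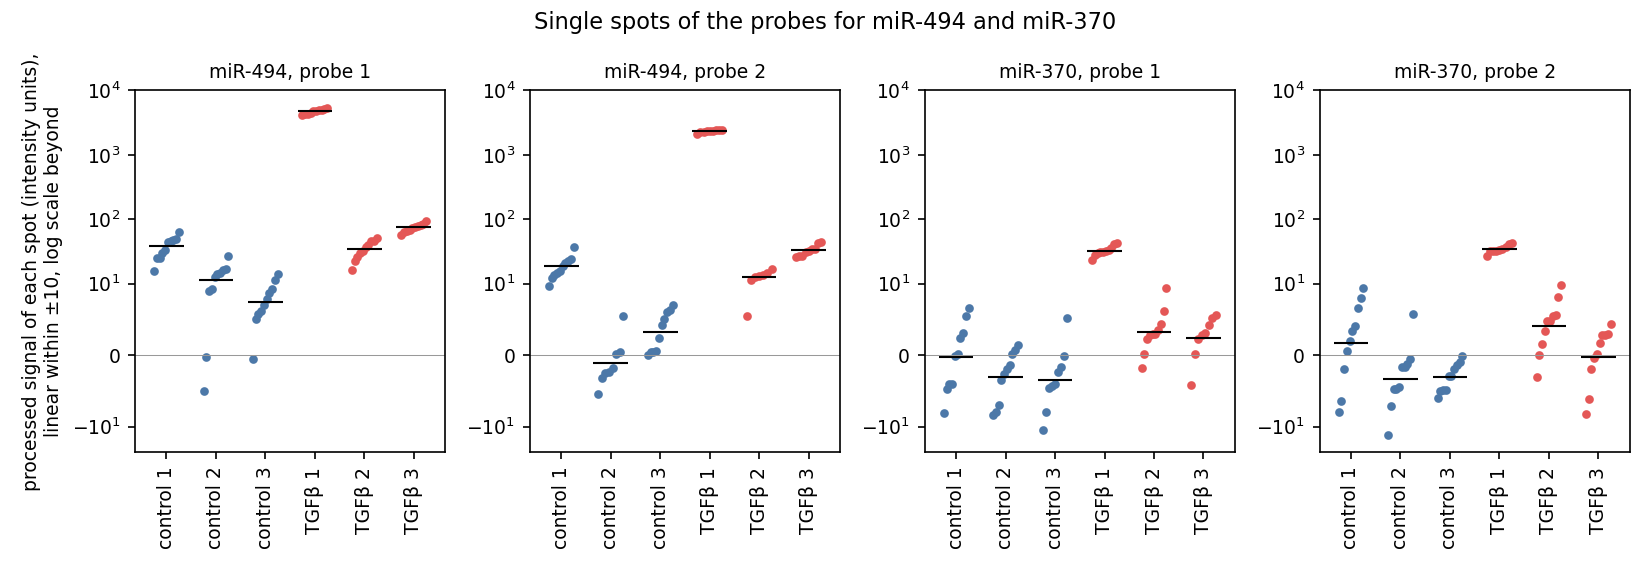
Processed signal of each spot (intensity units, linear within 10 of 0 and on a log scale beyond) for both probes of miR-494 and both of miR-370, by array, with black bars at the mean. Spots of miR-494 on TGFβ 1 lie between 2109 and 5411, and those of miR-370 rise above 20 on TGFβ 1 only.

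On the log2 scale, after each array was scaled to the 75th percentile of 105 probes well above background on every array, miR-494 read 4.68, 2.64 and 2.81 over the controls and 11.62, 4.26 and 5.69 over the TGFβ arrays. The control mean was 3.37 ± 1.13 and the TGFβ mean 7.19 ± 3.90 (SD, n = 3). The log2 difference was 3.82 (SE 1.92), and it did not pass in limma, where 84 miRNAs were tested (adjusted p = 0.391). Its size rests in part on values at background, since only 1 of the 3 control arrays measured miR-494. Entry to the test came through the TGFβ arrays alone, the group where miR-494 is high, so the test is not separate from that filter. With each control array set no lower than its dimmest probe well above background, the difference was 2.26. The controls so bounded averaged 4.93, and TGFβ 2 and 3 without TGFβ 1 averaged 4.98, nearly the same. The bounded difference thus rests on TGFβ 1. An exact two-sided permutation test of the 6 values gave p = 0.2, where 3 arrays against 3 cannot go below 0.1. In the same fit 0 of 84 miRNAs (0%) passed at an adjusted p of 0.05 and 8 had an unadjusted p under 0.05, and miR-494 was not among the 8. The median log2 difference over the 84 was -0.09.

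That difference was set largely by TGFβ 1. Without TGFβ 1 it was 1.60 (SE 0.78, limma adjusted p = 0.571). With both arrays left out, controls 2 and 3 averaged 2.72 and TGFβ 2 and 3 averaged 4.98. Without control 1 alone it was 4.46 (SE 2.28, limma adjusted p = 0.188), in a fit where 36.5% of the miRNAs passed. With the replicate number as a block it was 3.82 (SE 0.88, limma adjusted p = 0.0721), and 1 of 84 miRNAs (1.19%) passed in that fit, not miR-494. It passed with weights that let limma trust some arrays less (3.65, adjusted p = 0.0394), where 53.6% of all tested miRNAs passed too.

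The value was also taken within rows and columns of the slide. All 6 arrays were on 1 slide, in 2 rows. In slide column 1, TGFβ 2 minus control 1 was -0.41 on the log2 scale, and in column 2, TGFβ 3 minus control 2 was 3.05. Columns 3 and 4 held 1 array each. In row 1, TGFβ 1 stood 8.25 above the mean of the 3 controls, and row 2 held TGFβ arrays only. With the column as a block the difference was 1.32 (limma adjusted p = 0.941), and with the row as a block, where the TGFβ side of the comparison is TGFβ 1 alone, it was 8.25 (limma adjusted p = 0.0153) and 3.57% of the tested miRNAs passed.

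**Figure D3:**
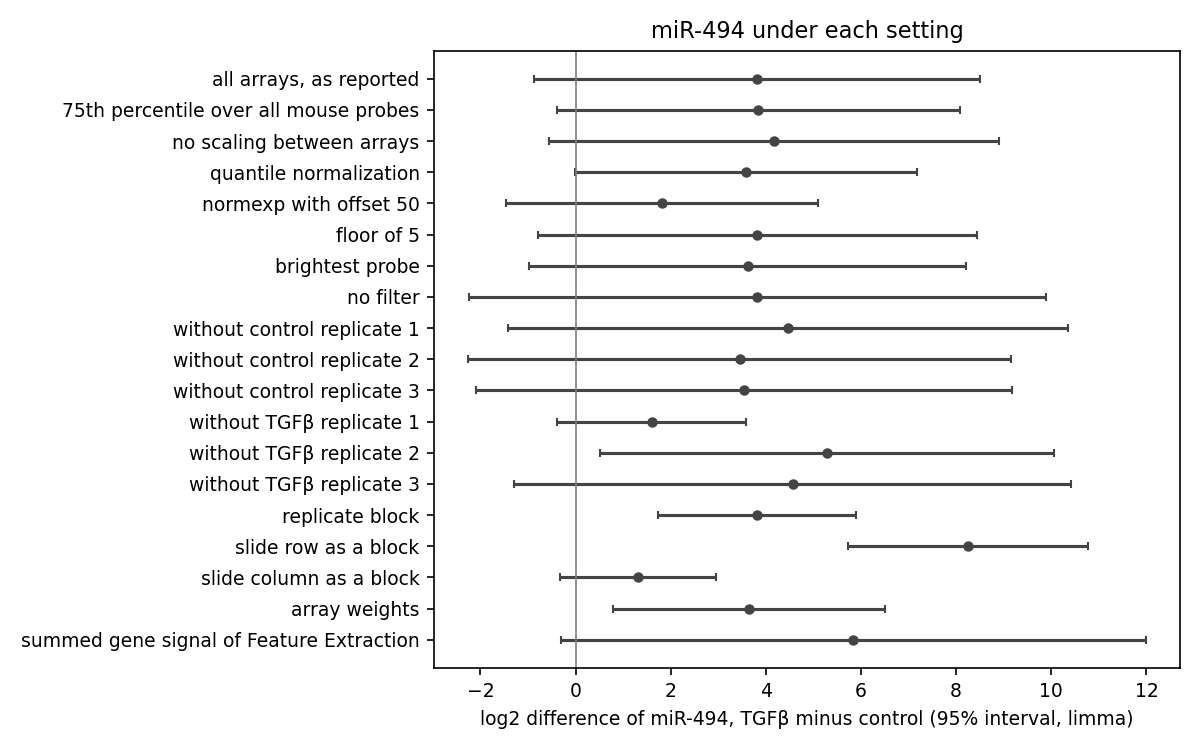
Log2 difference of miR-494 (TGFβ minus control, horizontal axis) with its 95% interval from limma, under each way of processing or choosing arrays. The values lie between 1.32 with the slide column as a block and 8.25 with the slide row as a block, and are 3.82 with all arrays and 1.60 without TGFβ replicate 1.

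The 5 tested miRNAs whose log2 values over the 6 arrays were most like those of miR-494 were miR-1224, miR-714, miR-181b, miR-31 and miR-29c, with Pearson correlations of 0.99, 0.97, 0.95, 0.95 and 0.91. The points share the arrays and their scaling, and the value of TGFβ 1 weighs heavily in each. Without TGFβ 1, over 5 arrays, the correlations were 0.95, 0.95, 0.92, 0.78 and 0.29 in the same order. The log2 level of miR-1224 was 8.31, 6.48 and 6.45 in control arrays and 14.48, 8.40 and 8.64 in TGFβ arrays. Like miR-494 it was higher on control 1 than on controls 2 and 3. Of the 42 cluster miRNAs, miR-494 alone was tested, so no other could be among the 5. Of the 15 miRNAs that stood at least 2 log2 units higher on TGFβ 1 than on any other array, 2 were cluster miRNAs, miR-494 and miR-370, and the others included miR-1224, miR-714, miR-712 and miR-715. For miR-370, miR-712 and miR-715 the other arrays were not well above background, so the gap is no measured fold. The part of array TGFβ 1 in the miR-494 result beyond these values was not tested.

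**Figure D4:**
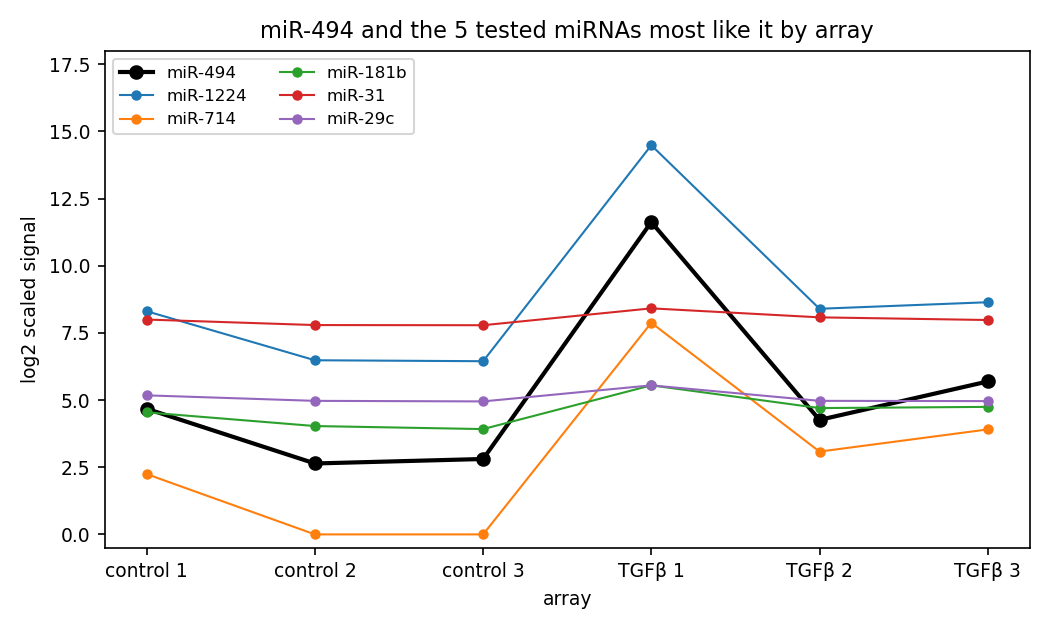
Log2 scaled signal of miR-494 (black) and of the 5 tested miRNAs most like it, by array. The line of miR-494 peaks at 11.62 on TGFβ 1 and that of miR-1224 at 14.48, while miR-31 stays between 7.79 and 8.41.

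The locus sequences that share the longest run with miR-494 were at background. The longest run of letters that miR-494 shares with other mature miRNAs of the locus is 9 bases, starting at its base 6, and it occurs in miR-154-3p and miR-485-3p, which the array lists as miR-154* and miR-485*. They are shown with the shared run in capitals. Probe sequences were not available and only locus sequences were compared, so whether a probe reads more than its own miRNA was not tested.

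miR-494-3p: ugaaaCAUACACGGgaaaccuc

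miR-154-3p: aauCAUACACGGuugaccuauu

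miR-485-3p: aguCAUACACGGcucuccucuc

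miR-154* read 1.67, 0.0150 and 0.142 without TGFβ and -0.572, 1.44 and -0.305 with it. miR-485* was below 0 on all 6 arrays, with -4.67 on TGFβ 1. Neither was above background where miR-494 read 3525.5. miR-329 and miR-666-5p, the cluster miRNAs next to miR-494 along the locus, were at background as well, with -1.24 and -3.65 on TGFβ 1.

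mmu-miR-370 was above background on TGFβ 1 alone. It lies within Rian and was read by 2 probes of 10 spots. Its signal was 0.704, -3.22 and -3.31 over controls 1, 2 and 3, and 33.5, 3.64 and 1.08 over TGFβ 1, 2 and 3. On TGFβ 1, 9 of 10 spots of the first probe and 9 of 9 kept spots of the second carried the flag, with means of 32.6 and 34.5. On the other 5 arrays no spot did. The value on TGFβ 1 is above every other array and above the dimmest probe well above background there (22.5).

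No fold is given for miR-370, because the TGFβ mean over 3 arrays was below the level that the dimmest measured probes set for control cells. It did not enter the test of 84 miRNAs, which required all 3 arrays of a group. With every mouse miRNA tested regardless of signal, 0 of the 42 cluster miRNAs passed in limma (adjusted p = 0.976 for miR-370). Of all 611 mouse entries 0 passed in that fit, so it does not set the cluster apart. Members such as miR-127, miR-379 and miR-431 were held at the floor of 1 on every array. Their difference was 0 for that reason, and they could not pass. Without TGFβ 1 no array showed miR-370 above background, and the number of cluster miRNAs above background at least once fell from 2 to 1. miR-341, the other member within Rian, read between -4.83 and -1.70.

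Star forms and further miRNAs of the locus were at background too. Besides the 42, the array lists 35 entries whose RefSeq genes lie between Dlk1 and Dio3, of which 13 are star forms. None of the 13 star forms was well above background on any array, nor were miR-539-5p, miR-544-3p, miR-493, miR-540-3p, miR-540-5p, miR-673-5p, miR-770-3p, miR-770-5p or miR-882. The exception among the 35 was miR-1906, whose gene lies within Meg3. It was singled out after its values were seen.

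miR-1906: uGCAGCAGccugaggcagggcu

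Its sequence is shown with the seed in capitals because it has 2 gene copies, at this locus and on chromosome X, which a probe cannot tell apart. The 3 controls read 21.8, 7.33 and 10.3, and the 3 TGFβ arrays 34.4, 21.8 and 20.3. Every TGFβ array and no control array passed as well above background, although control 1 and TGFβ 2 were nearly equal. Flagged spots on its probes were 3 of 10 and 3 of 10 on control 1, and 7 of 10 and 10 of 10 on TGFβ 1. On TGFβ 2 they were 0 of 8 and 5 of 10, and on TGFβ 3, 0 of 10 and 5 of 10. TGFβ 2 and TGFβ 3 thus passed on 1 probe, exactly at the cut of 0.5, so the split between groups hangs on that cut. On the log2 scale the control mean was 3.73 ± 0.57 and the TGFβ mean 4.46 ± 0.42 (SD, n = 3). The comparison did not pass in limma (adjusted p = 0.391). miR-1906 entered that test through the TGFβ arrays alone, where it is higher, so the test is not separate from the filter. No fold is given, because no control array measured it and the TGFβ mean was below the level set by the dimmest measured probes. Its G and C share was 68.2%, the same as that of miR-370.

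Another large imprinted miRNA cluster lies in the Sfmbt2 gene on another chromosome. Entries with the names of its families were counted without a check of gene location, so not all need lie there. Of these 39 entries (miR-297, miR-466, miR-467 and miR-669 forms), 1 (2.56%) was well above background at least once, miR-467f, on TGFβ 1 only. Of 9 entries at smaller imprinted loci (Mest, H19, Nespas and Igf2), 1 was, miR-296-5p of Nespas, on all 6 arrays, while the software's flag per miRNA was set for 3 of the 9. The differences between these lists and the Dlk1-Dio3 miRNAs were not tested.

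**Figure D5:**
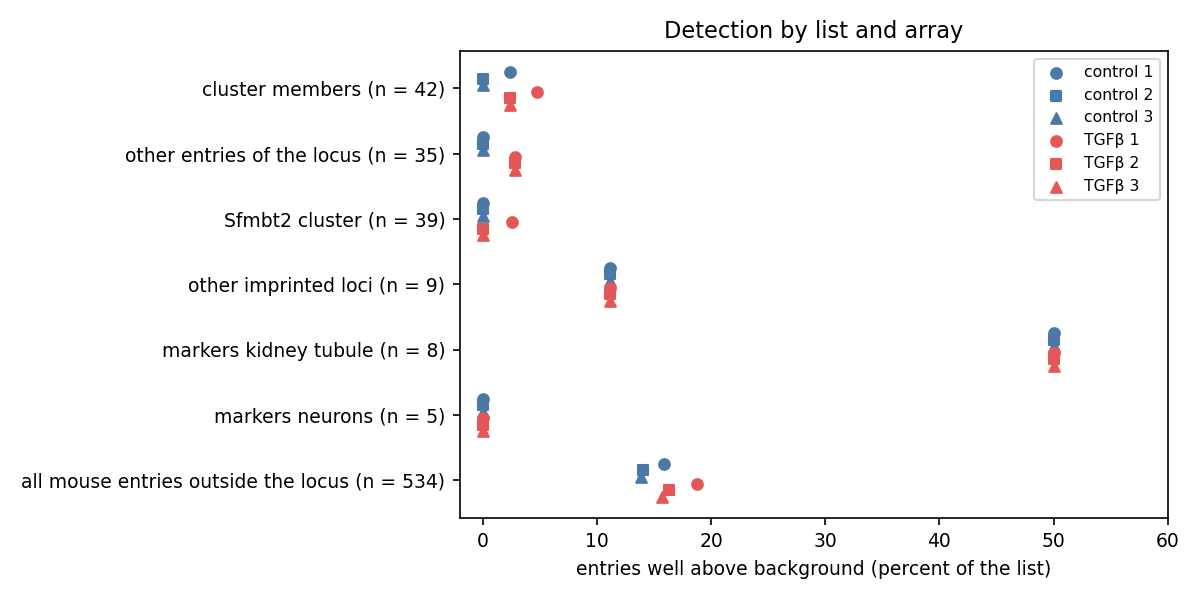
Share of each list well above background (percent, horizontal axis) on each of 6 arrays, with control arrays in blue and TGFβ arrays in red. At most 2 of the 42 cluster miRNAs were detected on an array (TGFβ 1), while kidney tubule markers stood at 4 of 8 on every array.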

How the data were processed

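For each spot the authors deposited the Cy3 intensity that Agilent Feature Extraction gives after subtracting background. Per the file headers, arrays were not brought to a common scale. The headers give version 10.7.3.1 and name the mm9 build, and the submitters' processing notes give version 10.1.1. Other deposited columns include flags, median spot and background intensities, and a summed signal per miRNA. The value table deposited for the series held the same intensity values (largest difference 0, column medians between 0.502 and 1.26), and no spot was saturated.

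Spots marked as outliers were left out, spots were averaged per probe and probes per miRNA, arrays were scaled to the 75th percentile of 105 probes, a floor of 1 was set and log2 taken. miRNAs well above background on all 3 arrays of a group were tested (84 of 611, 1 of them a cluster miRNA) with limma 3.58.1 in R 4.3.3 (two-sided, Benjamini-Hochberg over all tested). The script was tested on simulated data. For miR-494 an exact two-sided permutation test of the 6 log2 values was added. Precision is limited by the number of arrays.

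Same-numbered arrays deviated together from their group means (correlations 0.383, 0.373 and 0.521 over 84 miRNAs). The pairing comes from these correlations and the numbers in the titles alone, and control 2 also correlated with TGFβ 3 (0.385).

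The members, lists and tests were chosen with earlier results of these data known. Named with values were cluster miRNAs above background on any array, the brightest 3 of the rest, other locus entries above background and the 5 tested miRNAs most like a tested member. miR-127, miR-379 and miR-410 (chosen for their place), miR-329, miR-666-5p, miR-154* and miR-485* were added after values were seen. Sequences are from RefSeq (GRCm38.p6). That build differs from the one in the headers, so no coordinates are given. Alternatives changed the scaling, background correction, floor, probe summary, filter, blocks, weights, threshold and arrays.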

Additional observations from a re-analysis of the deposited data

How the results depend on the processing

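The direction of the miR-494 difference held under every alternative that gave a value. It was past the threshold with the slide row as a block (8.25) and with array weights (3.65), so 1 cluster miRNA was called under each, against 0 in the fit without blocks or weights. Under the row block and the weights, miR-494 was tested only through the TGFβ arrays, where it is high, so neither call is separate from the filter. Leaving out each array in turn gave values between 1.60 and 5.28 for miR-494, and between 0 and 31 calls over all miRNAs. The highest of these counts came without control replicate 1. With the replicate block 1 miRNA was called over all, and no call on a cluster miRNA changed. With the slide row 3 were called, and with array weights 45, a fit that stopped before its weights converged. Over all alternatives the limma adjusted p of miR-494 lay between 0.0153 and 0.976. With no filter 42 cluster miRNAs were tested, some of them held at the floor on every array and so unable to pass. None was tested when all 6 arrays or every spot had to be well above background (0 under each), so miR-494 has no value there. Calling a miRNA measured from at least 1 flagged spot raised the count of measured cluster miRNAs from 2 to 9. The share of all mouse entries under that looser rule is not given here, so the 9 of 42 has no background beside it. Under the cut of 0.5, leaving out each array in turn gave between 1 and 2 measured cluster miRNAs. The normexp value of miR-494 was 1.82 and the value from the scanner software's summed signal, added after the data were seen, was 5.84. The cause of these shifts was not tested. For the other 40 miRNAs the signal over background is the limit.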
